A study of Mus musculus with 6 samples.

Results

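The axon initial segment is the stretch of axon next to the cell body where a neuron starts its action potentials. Described here are 9 genes of this compartment in the mouse cerebellum. They are the scaffold genes Ank3 and Sptbn4, the adhesion genes Nfasc and Nrcam, the channel-binding factor gene Fgf14, the sodium channel alpha subunit genes Scn1a, Scn2a1 and Scn8a, and the beta subunit gene Scn4b. They were chosen by name, and each matched 1 of the 43346 gene models in the count table. RNA came from cerebellar tissue of 15-month-old mice, 3 wild type (WT, Tmem106b+/+) and 3 lacking Tmem106b on both chromosomes (KO, Tmem106b-/-), with 1 library per mouse. Each genotype holds 1 female, replicate 1, and 2 males. TMEM106B sits in the lysosomal membrane, and the series title links its loss to the death of Purkinje cells and to motor deficits. Neither the strain nor the design of the knockout allele is given in the sources used here, and all cells of the tissue were pooled in each library.

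At the initial segment ankyrin-G, the product of Ank3, holds sodium channels and adhesion proteins in place and is tied to the actin cytoskeleton through a spectrin, the product of Sptbn4. Each sodium channel is built from a pore-forming alpha subunit with auxiliary beta subunits, and intracellular fibroblast growth factor homologous factors bind the tail of the alpha subunit and tune its inactivation. Purkinje cells fire fast and without input, and they are known for a resurgent sodium current that flows as the membrane repolarizes and helps them fire again.

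Of the 9 genes, Scn4b was the one with the largest difference between genotypes. Its level in KO was 69.9% of that in WT, and no KO library reached the lowest WT library. In edgeR's quasi-likelihood test the difference did not pass the threshold of 0.05 once p-values were adjusted over all genes (Benjamini-Hochberg adjusted p = 0.0738). The other 8 genes had levels in KO between 92.9% and 109% of WT, with overlapping groups. Thus 0 of 9 genes passed over all genes, where 0.283% of the 16934 genes tested did so (48 genes, with 1 without WT replicate 2 or 3, 16 without KO replicate 2 and 156 without KO replicate 3). At an unadjusted p under 0.05 there was 1 of 9, Scn4b, against 8.96% of all genes in either direction and 4.25% lower in KO. DESeq2 also called 1 of 9, Scn4b, against 1.43% of all genes (0.866% lower in KO). edgeR with offsets for GC content and gene length called Scn4b too, against 1.61% (1.01% lower in KO), and so did edgeR at a threshold of 0.10, against 0.644%. limma-voom called 0 of 9, against 0.301% (0.165% lower in KO), and edgeR on the males alone called 0 of 9, against 0.651% (0.416% lower in KO).

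The product of Scn4b is known for a cytoplasmic tail that can block the open pore, which gives resurgent current when it leaves, and positively charged residues in that tail matter for the block. The gene lies on chromosome 9 at 45138437 to 45154152 of mm10. Its neighbour on the same strand, Scn2b, encodes another beta subunit, lies at 45117876 to 45130070 and ends 8366 bases before Scn4b begins. The final 48 codons of both coding sequences are printed because the genes are neighbours of 1 family that differ in their values below. They are given 5′ to 3′ on the plus strand of GRCm38, the assembly of mm10, from GENCODE release M21, with the codons for lysine and arginine in capitals.
Scn4b, exons 4 and 5 of 5, between 45149343 and 45150501: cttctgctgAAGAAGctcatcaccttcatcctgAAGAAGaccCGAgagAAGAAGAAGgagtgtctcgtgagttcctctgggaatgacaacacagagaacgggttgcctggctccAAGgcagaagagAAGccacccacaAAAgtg
Scn2b, exon 4 of 4, 45126158 to 45126301: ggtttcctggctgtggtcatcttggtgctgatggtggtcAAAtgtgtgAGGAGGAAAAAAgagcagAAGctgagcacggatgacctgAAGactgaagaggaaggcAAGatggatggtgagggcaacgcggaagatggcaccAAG
Of these 48 codons, 11 in Scn4b and 9 in Scn2b encode lysine or arginine, and 8 of the 11 in Scn4b and 6 of the 9 in Scn2b stand in the first 24 codons shown. The stretches were cut at a fixed length and not at the start of the tail, so these codon numbers need not cover the same parts of the proteins. The counts were made per gene, so they do not say which exons the reads came from.

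Depth and the libraries as a whole set the precision of these values. Library totals ran from 25245778 to 31135185 counts, and the 9 genes had between 1978 and 13938 counts in a library, so counting alone gives an error of at most 2.25% and the spread between mice is the larger part. Levels are given in CPM, the counts of a gene per 1000000 counts of the library, scaled by the trimmed mean of M-values. Tmem106b averaged 245 CPM (SD 19.4) over the WT libraries and 66.8 CPM (SD 3.64) over the libraries labelled KO, 27.2% of WT. The tissue was checked with Cbln3 and Gabra6, genes of cerebellar granule cells, which stood at 1976 to 2346 and 753 to 970 CPM over the 6 libraries. WT replicate 1 stood apart on the first principal component (35.6% of the variance), at -40.1 against -10.8 to 22.0 for the rest. KO replicate 1 stood apart on the second (26.9%), at 38.5 against -14.4 to 5.98. In KO replicate 1 the 4193 genes with the highest GC content had a median of -0.30 on the log2 scale relative to WT and the 4193 with the lowest a median of 0.18. The other 5 libraries stayed between -0.05 and 0.09 in both of these sets. Sptbn4 and Scn4b belong to the set of high GC content (GC content of the longest transcript 63.7% and 54.5%), and Fgf14, Scn1a and Scn2a1 to the set of low GC content (39.3%, 43.3% and 43.4%). The set of high GC content begins at 54.4%, so Scn4b lies just inside it. In the 4192 genes of the next lower set the median in KO replicate 1 was -0.07.

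Scn4b had 161, 135 and 158 CPM in WT replicates 1 to 3 and 97.8, 109 and 111 CPM in KO replicates 1 to 3. The lowest WT library stood above the highest KO library, which was so in this direction for 6.35% of all genes and in either direction for 14.1%. WT averaged 151 ± 14.6 CPM and KO averaged 106 ± 6.96 CPM (SD, n = 3 each). In edgeR this gave a log2 fold change of -0.52 (standard error, SE, 0.09, 95% interval -0.73 to -0.31), and by its unadjusted p the gene was number 93 of 16934. Its direction was the same in all 16 alternatives and it passed in 7 of them, with adjusted p-values from 1.72e-04 in DESeq2 to 0.482 without WT replicate 3. Of the 16, the threshold of 0.10 reuses the main fit, so its direction could not differ. Without KO replicate 3 Scn4b also passed (log2 fold change -0.53, adjusted p = 0.0271 in edgeR). In the 4 males alone the log2 fold change was -0.42 (edgeR adjusted p = 0.0605). With offsets for GC content and gene length it was -0.48 (edgeR adjusted p = 0.00652). The part of GC content in the value was not tested.

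**Figure D1:**
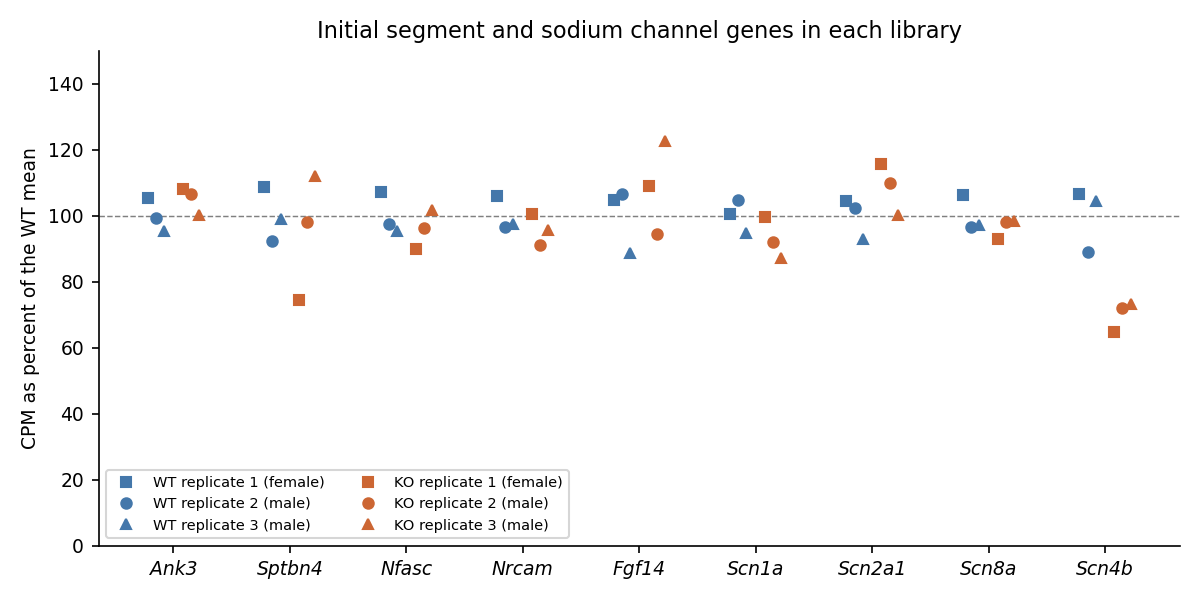
Level of each of the 9 genes in each library, as CPM in percent of the mean of the 3 WT libraries (blue WT, orange KO, squares females, circles and triangles males, dashed line the WT mean). The 3 KO libraries of Scn4b lie at 64.7 to 73.2% and below all 3 WT libraries (89.0 to 107%), and for the other 8 genes the groups overlap.

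The pore-forming subunits showed smaller differences in opposite directions. Scn2a1, which encodes an alpha subunit abundant in excitatory neurons and their unmyelinated axons, had 439, 430 and 390 CPM in WT and 485, 462 and 421 CPM in KO. KO replicates 1 and 2 were above every WT library and KO replicate 3 was not. Its log2 fold change was 0.12 (SE 0.07, 95% interval -0.04 to 0.28, edgeR adjusted p = 0.689), and 0.18 without KO replicate 3. With offsets for GC content and gene length it was 0.07. Scn1a, which encodes an alpha subunit of inhibitory neurons above all, had 280, 292 and 264 CPM in WT and 278, 257 and 244 CPM in KO. KO replicates 2 and 3 were below every WT library and KO replicate 1 was not, and the log2 fold change was -0.11 (SE 0.07, 95% interval -0.27 to 0.05, edgeR adjusted p = 0.718). Without WT replicate 2 or KO replicate 3 it was -0.05. Without KO replicate 1, or with offsets for GC content and gene length, it was -0.16. Scn8a, whose alpha subunit carries most of the resurgent current of Purkinje cells, had 384, 350 and 351 CPM in WT and 336, 355 and 356 CPM in KO. Both KO males lay between the WT males and the WT female, and the log2 fold change was -0.05 (SE 0.07, 95% interval -0.20 to 0.10, edgeR adjusted p = 0.864). The 3 genes together gave 1060 ± 49.9 CPM in the WT libraries and 1065 ± 40.3 CPM in the KO libraries (SD, n = 3 each; exact permutation test, two-sided, p = 0.9).

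Within the alpha subunits the balance of Scn2a1 and Scn1a differed between the groups without overlap. Counts were divided by the length of the gene model and expressed as a share of the 3 genes in the same library, which does not depend on how libraries are scaled. The shares were not computed with offsets for GC content, and the part of GC content in them was not tested. The share of Scn2a1 was 45.4%, 45.7% and 44.4% in WT and 49.8%, 48.7% and 47.0% in KO, so that each KO library lay above each WT library. The share of Scn1a was 24.3%, 26.0% and 25.1% in WT and 23.8%, 22.7% and 22.7% in KO, each KO library below each WT library. The difference of the means was 3.35 percentage points for Scn2a1 and -2.05 for Scn1a, each with p = 0.1 in an exact two-sided permutation test and 0.15 adjusted over the 3 shares, and 0.1 is the smallest p that 3 against 3 mice allow. The share of Scn8a was 29.7 ± 1.19% in WT and 28.4 ± 1.98% in KO (SD, n = 3 each), with overlapping groups and p = 0.5 in the exact permutation test. The log2 ratio of Scn2a1 to Scn1a counts was 0.59 ± 0.05 in WT and 0.81 ± 0.03 in KO (SD, n = 3 each). This ratio was 1 of 13 examined after the values had been seen, with an exact permutation p of 0.1 and 0.118 adjusted over them. In the males alone the difference in this ratio was 0.26, against 0.23 in all 6 mice. The genes lie in 1 cluster on chromosome 2 of mm10, Scn3a at 65457118 to 65567627, Scn2a1 at 65620857 to 65767447 and Scn1a at 66270781 to 66440840. Scn3a, an alpha subunit gene of the developing brain, was weakly expressed, with 2.57 ± 0.68 CPM over WT and 2.19 ± 0.65 CPM over KO libraries (SD, n = 3 each).

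**Figure D2:**
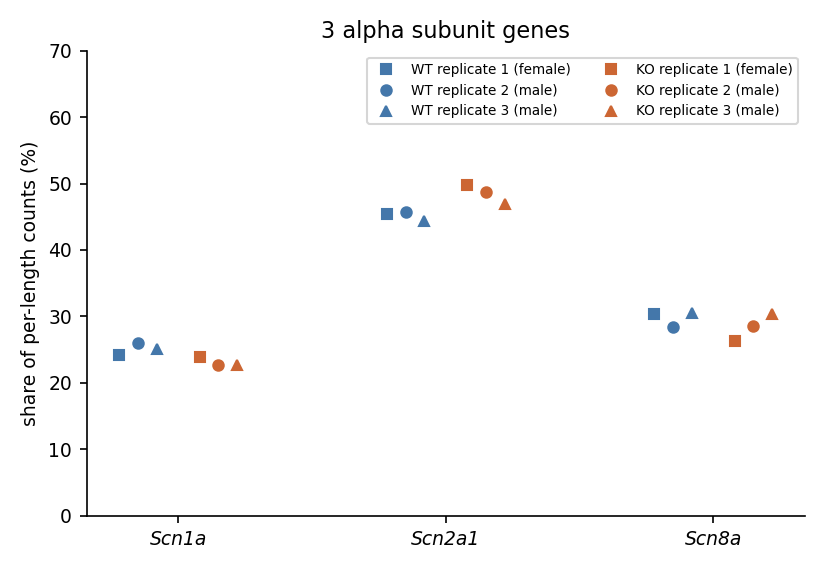
Share of each gene in the per-length counts of the 3 alpha subunit genes in each library, in percent (blue WT, orange KO, squares females, circles and triangles males). Scn2a1 lies higher and Scn1a lies lower in all 3 KO libraries, while Scn8a overlaps.

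Among other beta subunit genes the groups of those described here overlapped. Scn2b, the neighbour whose coding end is printed above, had 655, 488 and 558 CPM in WT and 641, 561 and 552 CPM in KO, with a log2 fold change of 0.05 (SE 0.07, 95% interval -0.12 to 0.22, edgeR adjusted p = 0.876). Without WT replicate 2 its value was -0.02. The log2 ratio of Scn4b to Scn2b was -1.90 ± 0.11 in WT and -2.47 ± 0.21 in KO (SD, n = 3 each; exact permutation p = 0.1, adjusted over 13 ratios p = 0.118). The share of Scn4b in the per-length counts of the 4 beta subunit genes was 8.45 ± 0.63% in WT and 6.47 ± 0.40% in KO (SD, n = 3 each). Its exact permutation p was 0.1, and 0.4 adjusted over the 4 shares. The weakly expressed Scn3b was at -0.36 (SE 0.20, edgeR adjusted p = 0.678). Leaving out WT replicate 1 gave -0.64 and leaving out KO replicate 1 gave -0.65. With sex in the model both of these fits rest on the same males, who alone gave -0.65. Leaving out KO replicate 3 gave -0.24.

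The scaffold genes overlapped between the genotypes. Ank3 had 464, 437 and 420 CPM in WT and 475, 468 and 441 CPM in KO, a log2 fold change of 0.07 (SE 0.06, 95% interval -0.07 to 0.21, edgeR adjusted p = 0.799). KO replicates 1 and 2 exceeded every WT library by a small margin and KO replicate 3 did not. With offsets for GC content and gene length the log2 fold change was -0.05, the opposite direction. Its gene model of 33152 bases is number 7 in length among the genes tested and joins the giant neuronal transcripts of ankyrin-G with the short ones, which the counts do not separate. Sptbn4 had 114, 96.7 and 104 CPM in WT and 77.8, 103 and 117 CPM in KO. KO replicate 1 was below every other library, at 74.3% of the WT mean, and KO replicate 3 above every other, at 112%. Its log2 fold change was -0.09 (SE 0.14, 95% interval -0.41 to 0.23, edgeR adjusted p = 0.880) and 0.13 in the males alone. With offsets for GC content and gene length it was 0.05. Sptbn4 has the highest GC content of the 9 genes, and it overlaps the gene model Gm20479, which holds 7.07% as many counts. The strand setting of the counting is not given in the sources used here.

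The adhesion genes also overlapped. Neurofascin, the product of Nfasc, has 1 form on the initial segment and nodes of neurons and another at the paranodal loops of oligodendrocytes, and gene counts join them. Nfasc had 373, 339 and 332 CPM in WT and 312, 335 and 354 CPM in KO, with KO replicate 1 below all WT libraries and the KO males among them. The log2 fold change was -0.06 (SE 0.08, 95% interval -0.23 to 0.11, edgeR adjusted p = 0.856) and 0.03 in the males alone. Nrcam, which encodes a cell adhesion molecule of the same family found at the initial segment and nodes, had 264, 240 and 243 CPM in WT and 250, 227 and 238 CPM in KO. KO replicates 2 and 3 were below every WT library and KO replicate 1 was not. The log2 fold change was -0.06 (SE 0.06, 95% interval -0.20 to 0.07, edgeR adjusted p = 0.814), negative in all 16 alternatives and past the threshold in 0. Markers of myelinating oligodendrocytes passed in 0 of 12, at a median of -0.06, with summed levels of 4064 to 5627 CPM in WT and 4706 to 4746 CPM in KO.

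Fgf14, which encodes a homologous factor that binds sodium channels and whose mutation causes a spinocerebellar ataxia in people, was the least precise of the genes after Sptbn4. It had 85.6, 87.3 and 72.5 CPM in WT and 89.1, 77.3 and 100 CPM in KO. The highest library was KO replicate 3 and the lowest WT replicate 3, with the others between. The log2 fold change was 0.12 (SE 0.11, 95% interval -0.14 to 0.38, edgeR adjusted p = 0.814), and it ran from 0.02 without KO replicate 3 to 0.22 without KO replicate 2 over the 16 alternatives. For Scn4b the estimate of -0.52 lay below the 95% interval of each of the other 8 genes.

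**Figure D3:**
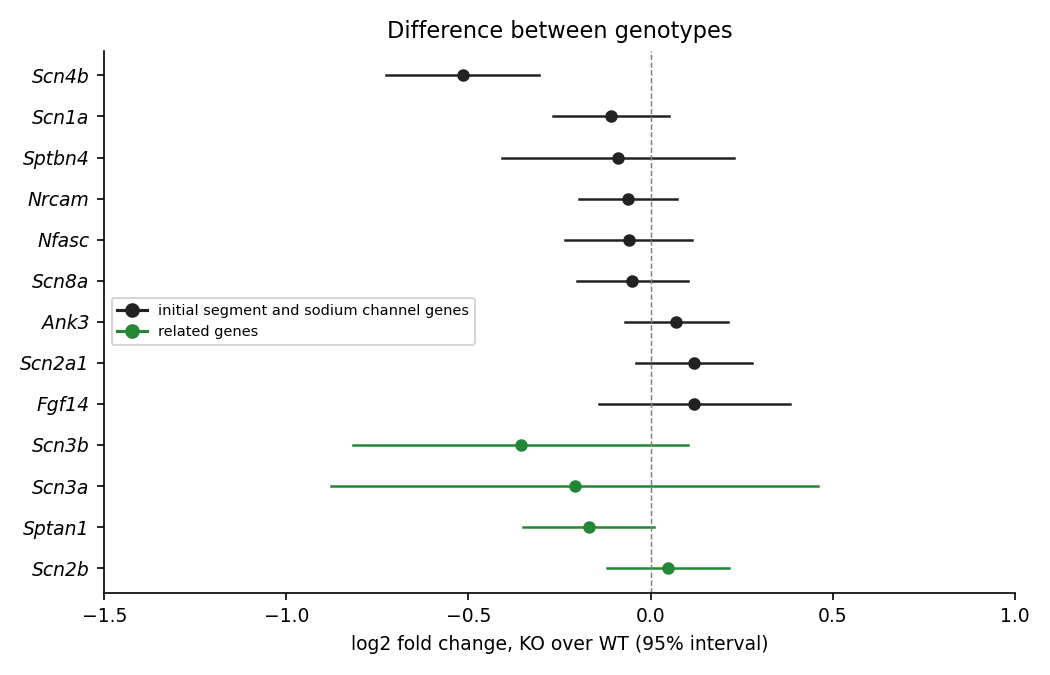
Log2 fold change of KO over WT with its 95% interval from edgeR for the 9 genes (black) and for related genes named in the text, Scn2b, Scn3a, Scn3b and Sptan1 (green), sorted within each set. The interval of Scn4b (-0.52) lies below 0, and those of the other 8 black genes contain 0.

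Levels between genes were compared per length, as CPM per kilobase of gene model, in WT. Scn2a1 was highest at 45.3 ± 2.80, followed by Nrcam at 32.8 ± 1.72, Scn4b at 30.6 ± 2.95, Scn8a at 29.8 ± 1.62, Scn1a at 25.2 ± 1.26, Nfasc at 24.6 ± 1.54, Fgf14 at 19.6 ± 1.94, Ank3 at 13.3 ± 0.67 and Sptbn4 at 10.8 ± 0.89 (SD, n = 3 each). The highest was 4.21 times the lowest. Neighbours in this order had overlapping WT libraries in 3 of 8 pairs, namely Nrcam and Scn4b, Scn4b and Scn8a, and Scn1a and Nfasc. In KO Scn4b stood at 21.4 ± 1.41 CPM per kilobase (SD, n = 3), close to Fgf14 at 21.3 ± 2.76 and Nfasc at 23.6 ± 1.47, and it no longer overlapped Nrcam or Scn8a. A gene model that joins many transcripts is longer than any of them, so these levels are underestimates, most of all where isoforms are many. All 9 gene models are longer than the median of the genes tested, 3488 bases.

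**Figure D4:**
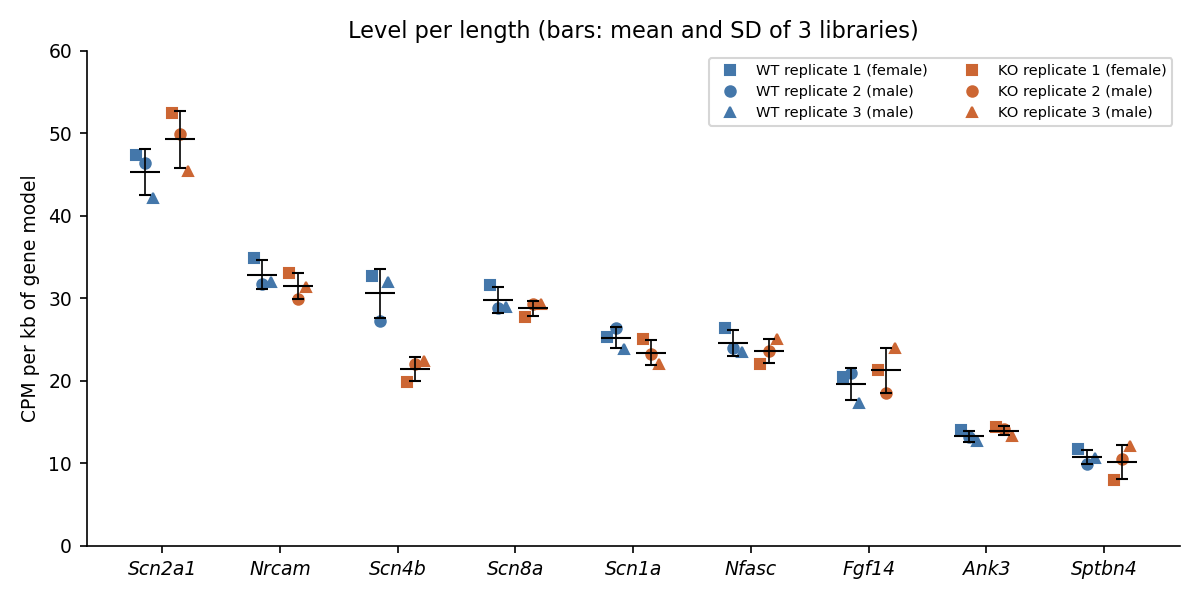
Level of each gene in CPM per kilobase of gene model, ordered by the WT mean, for each library (blue WT, orange KO, squares females, circles and triangles males), with black bars for the mean and SD of 3 libraries. Scn2a1 is the highest and Sptbn4 the lowest in both genotypes, and Scn4b moves from 30.6 in WT to 21.4 in KO.

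The genes around these 9 were followed through lists of their families and compartments. Of 7 tested among 11 other sodium channel genes (the other alpha and beta subunits and the leak channel Nalcn), 0 passed over all genes in edgeR, DESeq2 or limma-voom, and 0 had an unadjusted p under 0.05. Their median log2 fold change was -0.21, against 0.00029 for all genes tested, and -0.54 in the males alone. Scn10a, Scn11a and Scn4a, channels of sensory neurons and muscle, were too low to test, with 1, 12 and 8 counts over all 6 libraries. Of 11 gene models for other homologous factors and channel regulators, 0 passed, with 1 at an unadjusted p under 0.05 (Fgf11, -0.30, SE 0.09, edgeR adjusted p = 0.305) and a median of -0.02. An unadjusted p under 0.05 in edgeR was reached by 8.96% of all genes tested. DESeq2 and limma-voom also called 0.

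Other ankyrin, spectrin and adducin genes lay below 0 in 8 of 8, where 8453 of the 16934 genes tested did. Their median was -0.12 on the log2 scale and -0.05 in the males alone, and relative to WT it was -0.27 in KO replicate 1, -0.12 in KO replicate 2 and -0.06 in KO replicate 3. The list had 0 past the threshold in edgeR and 1 at an unadjusted p under 0.05, against 8.96% of all genes. DESeq2 called 1 of 8, against 1.43% of all genes, and limma-voom 0, against 0.301%. The most abundant gene of this list, the alpha spectrin gene Sptan1, was at -0.17 (SE 0.08, edgeR adjusted p = 0.591). Fgf11 and the genes of the following lists that did not pass were picked out after their values had been seen.

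Adhesion, junction and matrix genes of nodes and paranodes had a median of 0.02 over 17 tested, with 0 past the threshold in edgeR, DESeq2 or limma-voom. Against 8.96% of all genes, 3 of the 17 had an unadjusted p under 0.05 in edgeR. These were Dlg2, which encodes a scaffold protein of juxtaparanodes and synapses (-0.27, SE 0.06, edgeR adjusted p = 0.185), Adam23 (-0.21, SE 0.06, edgeR adjusted p = 0.266) and Adam22 (0.16, SE 0.07, edgeR adjusted p = 0.519), which encode receptors of the LGI proteins. With offsets for GC content and gene length Dlg2 and Adam23 passed, where 1.61% of all genes did. The most abundant gene, Cntn1, which encodes an axonal partner at the paranode, was at 0.05 (SE 0.06, edgeR adjusted p = 0.847). Potassium channel, microtubule and cisternal genes of the initial segment had a median of -0.04 over 15 tested, with 0 past the threshold in the 3 tools. At an unadjusted p under 0.05 there were 2 of the 15, against 8.96% of all genes. These 2 were Synpo, which encodes the actin-binding protein of the cisternal organelle (-0.37, SE 0.11, edgeR adjusted p = 0.302), and the channel gene Kcnq3 (0.21, SE 0.08, edgeR adjusted p = 0.498). Map1b, the most abundant of this list, was at -0.12 (SE 0.06, edgeR adjusted p = 0.646).

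Markers of cerebellar neurons and glia were measured in the same libraries. Purkinje cell markers lay below 0 in 12 of 12, against 8453 of 16934 for all genes tested, and their median log2 fold change was -0.38. Over all genes tested, 0.148% passed the threshold in edgeR as lower in KO and 0.136% as higher in KO. Of the 12 Purkinje cell markers 4 fell in edgeR, Itpr1 (-0.65), Rgs8 (-0.65), Car8 (-0.62) and Ppp1r17 (-0.50), with adjusted p-values of 0.0134 to 0.0465. These calls were lost without WT replicate 2, WT replicate 3 or KO replicate 2, where the log2 fold change of Itpr1 was -0.66, -0.63 and -0.62 (edgeR adjusted p = 0.134, 0.186 and 0.0883). Their summed level was 13175 to 14241 CPM in WT and 9430 to 10571 CPM in KO, and the lowest of the 12 in any library was Pcp2 in KO replicate 1 at 106 CPM. Scn4b was lower in the same KO libraries, and the part of Purkinje cell number in its values was not tested. In bulk tissue fewer cells of a type and less RNA per cell cannot be told apart. Granule cell markers had a median of 0.06 with 0 of 10 past the threshold, and Cbln3, the most abundant, was at 0.04 (edgeR adjusted p = 0.913). Interneuron markers had a median of -0.01 with 0 of 10 past the threshold. The calcium-binding protein gene Pvalb, the most abundant and also expressed by Purkinje cells, was at -0.23 (edgeR adjusted p = 0.319). Markers of deep nuclei and unipolar brush cells, several of which are also in other neurons, had a median of 0.07. In edgeR 1 of the 10 passed the threshold, lower in KO. Snap25, the most abundant gene of that list and expressed by neurons in general, was at -0.04 (edgeR adjusted p = 0.886). Oligodendrocyte precursor markers had a median of -0.08 with 0 of 6 past the threshold, and Pdgfra, the most abundant, was at -0.01 (edgeR adjusted p = 0.992). Astrocyte markers had a median of -0.09, with 1 of 8 past the threshold, Gfap, which rose by 0.90 (edgeR adjusted p = 0.0214), while the most abundant, the glutamate transporter gene Slc1a3, was at -0.24 (edgeR adjusted p = 0.410). Of 13 gene models of microglia markers 6 rose, against 0.136% of all genes tested. Among them were Clec7a (1.85 for the gene model that passed), Lyz2 (1.53), Fcrls (1.46) and Cd68 (1.26), with edgeR adjusted p-values of 0.0106 to 0.0440. Those that did not pass included Tmem119 (-0.01), P2ry12 (0.08) and Csf1r (0.22), with edgeR adjusted p = 0.989, 0.884 and 0.625. The list's summed level was 244 to 300 CPM in WT and 402 to 481 CPM in KO. Without WT replicate 2 or 3 neither Gfap (0.81 and 0.89, edgeR adjusted p = 0.154 and 0.223) nor Lyz2 (1.58 and 1.48, edgeR adjusted p = 0.117 and 0.148) passed.

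The genes most like each of the 9 in pattern were those with the smallest root mean square difference of centred log2 CPM over the 6 libraries, among 10413 other genes averaging 10 CPM or more. For Scn4b these were Arap1 (0.058), Thy1 (0.063) and Kalrn (0.064), whose log2 fold changes were -0.47, -0.43 and -0.44. For Scn2a1 they were Lurap1 (0.007), Casp8ap2 (0.019) and Poglut1 (0.021), and for Scn1a Pygo1 (0.025), Ehbp1 (0.025) and Cpsf3 (0.026). Scn8a was closest to Dnaja3 (0.009), Ank3 to Abl2 (0.016), Sptbn4 to Sphk2 (0.011), Nfasc to Arhgap44 (0.014), Nrcam to Vdac1 (0.010) and Fgf14 to Foxo3 (0.046). None of the nearest genes of one of the 9 was another of the 9. With 6 libraries a close match is a description of these samples, and flat genes match many others.

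**Figure D5:**
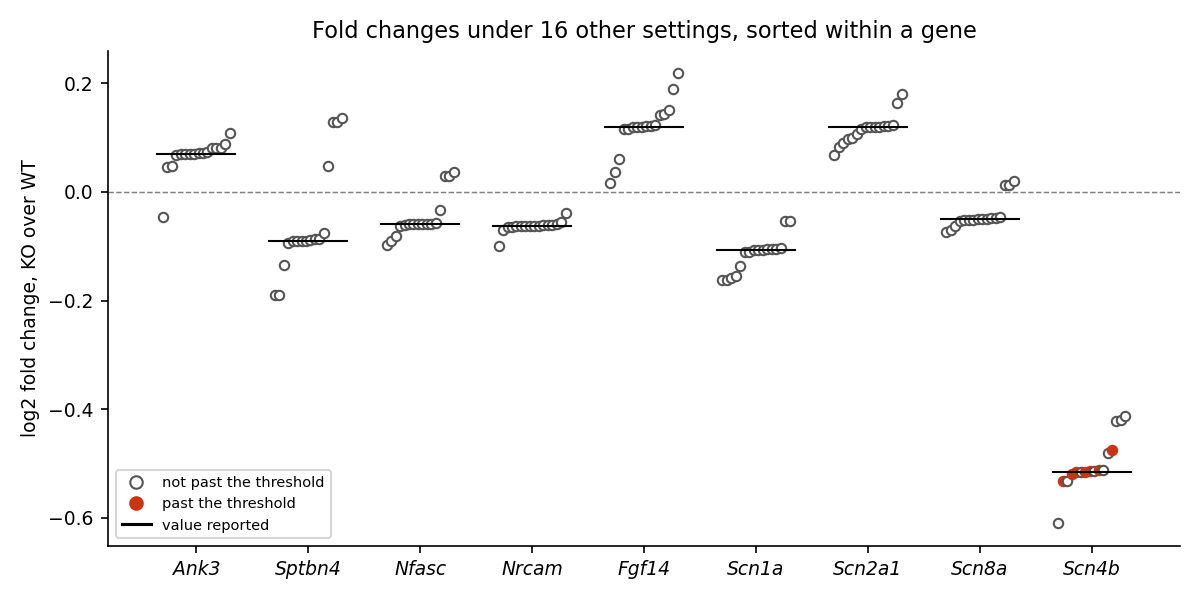
Log2 fold change of KO over WT of each of the 9 genes under 16 other settings, sorted within a gene (red points past that setting's threshold, open points not, black line the value reported). Scn4b ranges from -0.61 to -0.41 with 7 points past the threshold, and the other 8 genes have 0 points past it and stay between -0.19 and 0.22.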

How the data were processed

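The deposited table holds raw counts per gene model for the 6 cerebellar libraries, with each model's coordinates, symbol and length in bases, per the file headers. The submitters' processing notes name STAR and mm10. What tool counted the reads, on which annotation and with which strand setting, is not stated in the sources used here. The RNA integrity number was 10 in all samples, per the labels. All 37 mitochondrial genes held 0 counts, so mitochondrial reads were not analysed here.

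The fits used edgeR 4.0.16 (R 4.3.3). filterByExpr (minimum count 10, minimum total 15) left 16934 genes, and libraries were scaled by TMM. Sex and genotype were fitted with the robust quasi-likelihood method in its legacy version (residual degrees of freedom 3, prior 5.41), and Benjamini-Hochberg adjustment ran over these genes at a threshold of 0.05. CPM is TMM-scaled. Alternatives were RLE factors, other filters, DESeq2 1.42.0, limma-voom (limma 3.58.1), a fit without sex, the newer quasi-likelihood version, the 4 males alone, a threshold of 0.10, each library omitted in turn, and offsets for GC content and length (loess, span 0.5, GC content known for 99.0% of genes). The threshold of 0.10 reuses the main fit, so it cannot change a direction. The fits were tested on simulated data. Pairs of mice within a genotype had a chi-square of 6.96 to 28.8 per degree of freedom over genes, so none was a repeat of another, and replicate numbers follow the order of deposit. Each library is labelled as 1 mouse. The 9 genes, the lists and the alternatives were chosen with earlier results of these data known. Named genes were the 9, Tmem106b, from each list the members past the threshold (up to 4 by fold change) and the most abundant, and for each of the 9 the 3 genes nearest in pattern, of which the report prints the first for 6 of them. Some genes that this rule names are not reported here.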

Additional observations from a re-analysis of the deposited data

How the results depend on the processing

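Of the 9 genes, Scn4b, Nrcam, Fgf14, Scn1a and Scn2a1 kept their direction in all 16 alternatives, and of the 9 Scn4b was the one that crossed the threshold. It passed unfiltered (-0.52), with genes averaging 1 CPM or more (-0.51), with DESeq2 (-0.51), no sex term (-0.52), GC content and length offsets (-0.48), a threshold of 0.10 (-0.52) and without KO replicate 3. It did not pass with RLE factors, limma-voom, the newer quasi-likelihood version, the males alone or any other library left out, and its log2 fold change ran from -0.61 to -0.41 with a library left out. Directions turned for Ank3 with the offsets (-0.046), and for Sptbn4 with the offsets (0.048). In the males alone they turned for Sptbn4 (0.13), Nfasc (0.029), Scn8a (0.013) and the share of Scn8a (0.045 points). With a library left out Sptbn4 ran from -0.19 to 0.14, Nfasc from -0.10 to 0.037 and Scn8a from -0.073 to 0.021, and turned where WT or KO replicate 1 was left out. Those fits rest on the same males. Scn2b turned without WT replicate 2 (-0.017, with up to 0.094 without another library). The cause of these turns was not tested. The shares of Scn2a1 and Scn1a kept their direction, from 2.70 to 4.12 and from -2.48 to -1.63 points with a library left out.

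The number of genes called was 48, and it was 75 with RLE factors, 199 unfiltered, 74 among genes averaging 1 CPM or more, 232 in DESeq2, 111 in the males alone, 272 with the offsets and 109 at a threshold of 0.10. With a library left out it ran from 1 (without WT replicate 2 or 3) to 156 (without KO replicate 3), so adjusted p-values near the threshold move with single mice. Calls named among the markers were lost in some of these fits: without WT replicate 2 or 3 none of Itpr1, Rgs8, Car8, Ppp1r17, Gfap and Lyz2 passed. Counts are deep for the 9 genes and limit only rare ones such as Scn3b. No paired analysis was possible because the labels give no replicate numbers, and those used here follow the order of deposit and match no mouse to another. The sample titles share a prefix between some WT and KO mice, and the labels do not say what it stands for.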
